A study of Mus musculus with 24 samples.

Results

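Calmodulin, the calmodulin-dependent kinases and calcineurin carry calcium signals in neurons, and 9 of their genes were followed here by symbol in the mRNA table: the CaMKII subunit genes Camk2a, Camk2b, Camk2d and Camk2g, the CaMKIV gene Camk4, the calmodulin genes Calm2 and Calm3, and the catalytic calcineurin genes Ppp3ca and Ppp3cb. They are 9 of 36096 genes and 97 of 117640 transcripts with a gene ID. The series profiled the medial frontal cortex of C57BL/6J mice at postnatal day 28. Dnmt3l mice carried both the conditional Dnmt3l knock-in and Emx1-cre (genotype Dnmt3l;Emx1-cre, 3 males and 3 females). Control mice carried Emx1-cre alone (3 males and 3 females), so the Cre transgene was common to both genotypes. Cre driven from Emx1 acts in the progenitors of the dorsal forebrain, whose descendants are the excitatory cortical neurons and much of the cortical glia, while interneurons, microglia and vessel cells arise elsewhere.

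Libraries are written DM and DF for Dnmt3l males and females and CM and CF for control males and females, with the replicate number. Whether each library came from its own animal is not stated in the labels, and the spread that p-values rest on may therefore be technical in part. Total mRNA counts ran from 22144970 to 26842726 in Dnmt3l libraries and from 27074837 to 32100277 in controls. RNA of Dnmt3l itself, which encodes a cofactor that stimulates de novo DNA methyltransferases without activity of its own, had 521 to 1179 counts in the 6 Dnmt3l libraries and 0 to 3 counts in the 6 controls. Some libraries stood apart from the others of their genotype. DF1 had the most Dnmt3l RNA (1179 counts), yet resembled the controls for several of the 9 genes. The controls CM3, CF1 and CF2 held 79.6 to 99.7 CPM of 11 liver genes summed, against 0.262 to 1.73 CPM in the other 9 libraries. Counts of calls among the 9 genes are given with and without them. Changes of single transcripts and of single pathway genes are mostly given with all libraries only.

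Calcium entering a neuron binds calmodulin, and calcium-loaded calmodulin switches on kinases and a phosphatase with opposite effects on synapses. CaMKII is a ring of subunits encoded by Camk2a, Camk2b, Camk2d and Camk2g. Its alpha and beta subunits predominate in the forebrain, where the kinase accumulates in the postsynaptic density and is required for long-term potentiation, and the beta subunit also binds actin filaments. CaMKIV works mainly in the nucleus, where it phosphorylates the transcription factor CREB. Calcineurin, a phosphatase of a catalytic A subunit (Ppp3ca, Ppp3cb) and a regulatory B subunit, is linked to long-term depression and to the nuclear entry of NFAT factors. All the classical calmodulin genes encode the same protein, so the RNA from each adds to one pool.

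Promoter sequences of 4 of the 9 genes, Camk2b, Camk2d, Calm3 and Ppp3cb, were matched in a RefSeq table (GRCm38.p6). They are shown because CpG dinucleotides are what DNA methyltransferases act on, and they are the 250 bases before the RefSeq start, 5′ to 3′ on the strand of the gene, with CpG in capitals. That start can differ from the outer end of the gene given further on: the Camk2b and Camk2d windows lie inside those spans and the Calm3 window overlaps the end of its span.
Camk2b (chr11:6065749-6065998, minus strand): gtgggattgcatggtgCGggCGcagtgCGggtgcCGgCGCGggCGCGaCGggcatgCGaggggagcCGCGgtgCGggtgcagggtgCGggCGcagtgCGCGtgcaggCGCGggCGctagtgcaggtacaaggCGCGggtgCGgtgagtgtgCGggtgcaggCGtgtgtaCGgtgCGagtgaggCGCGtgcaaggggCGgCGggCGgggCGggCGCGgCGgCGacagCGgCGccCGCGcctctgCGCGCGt
Camk2d (chr3:126596701-126596950, plus strand): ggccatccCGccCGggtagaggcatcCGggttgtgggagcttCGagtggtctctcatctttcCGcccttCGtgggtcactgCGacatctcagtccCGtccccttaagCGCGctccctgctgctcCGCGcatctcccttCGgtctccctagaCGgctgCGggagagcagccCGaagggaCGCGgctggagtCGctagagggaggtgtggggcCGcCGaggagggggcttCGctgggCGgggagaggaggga
Calm3 (chr7:16924033-16924282, minus strand): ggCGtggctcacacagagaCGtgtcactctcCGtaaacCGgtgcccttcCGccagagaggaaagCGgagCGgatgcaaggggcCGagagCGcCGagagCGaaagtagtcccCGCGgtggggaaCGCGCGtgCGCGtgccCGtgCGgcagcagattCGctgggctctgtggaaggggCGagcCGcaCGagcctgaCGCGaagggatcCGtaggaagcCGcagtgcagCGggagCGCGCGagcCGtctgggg
Ppp3cb (chr14:20546574-20546823, minus strand): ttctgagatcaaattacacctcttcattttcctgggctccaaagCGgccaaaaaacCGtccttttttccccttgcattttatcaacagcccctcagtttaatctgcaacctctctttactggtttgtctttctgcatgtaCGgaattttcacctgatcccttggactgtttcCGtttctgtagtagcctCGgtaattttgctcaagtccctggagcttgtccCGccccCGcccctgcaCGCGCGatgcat
The Camk2b window held 44 CpGs, against a median of 6 over 32851 promoters of the same length, and 0.539% of promoters held as many or more. Calm3 held 33 (4.03% of promoters had as many or more), Camk2d held 23 (13.3%) and Ppp3cb held 10 (37.8%). The GC box GGGCGG, which contains a CpG, was found on either strand 3 times each in Camk2b and Camk2d, 2 times in Ppp3cb and not in Calm3, and 32.7% of promoters held at least 1. The core of the CREB site, TGACG, whose last letters are a CpG, occurred in the Calm3 window only, and 17.8% of promoters had it. These letter matches describe the windows, and DNA methylation was not measured in the files used here.

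Levels are compared between genes per length, as FPKM, and between libraries as CPM (counts scaled to library size, with TMM factors). On the FPKM scale Camk2a was highest in both genotypes, at 1098 ± 94.5 FPKM in Dnmt3l and 828 ± 62.6 FPKM in controls (SD, n = 6 each). In controls Calm2 followed at 819 ± 89.4 FPKM, and its libraries (716 to 913) overlapped those of Camk2a (724 to 881). Calm3 came next at 593 ± 13.9 FPKM, then Ppp3ca at 398 ± 18.7, Camk2b at 236 ± 8.06 and Camk2g at 188 ± 22.3, the last pair overlapping. Ppp3cb stood at 93.3 ± 7.51 FPKM, and Camk4 at 55.3 ± 2.94 overlapped Camk2d at 51.2 ± 3.34. In Dnmt3l the means kept that order except that Camk2d (44.2 ± 9.61 FPKM) stood above Camk4 (37.0 ± 5.51), with overlapping ranges. Calm2 (381 ± 206 FPKM) and Calm3 (356 ± 127) also overlapped each other in Dnmt3l, and both lay below Camk2a in every library.

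The first comparison asked which of these genes differed between Dnmt3l and control cortex. Averaged over the sexes, 1 of the 9 rose (Camk2a) and 8 fell (Camk2b, Camk2d, Camk2g, Camk4, Calm2, Calm3, Ppp3ca and Ppp3cb) in edgeR's quasi-likelihood test at a Benjamini-Hochberg adjusted p below 0.05. Of 15786 genes tested, 25.2% were called higher and 26.4% lower, so that any call had a background of 51.5%. Those were 3976 genes higher and 4160 lower, against 2834 and 5164 with total count scaling and 2329 and 4282 with limma on log2(FPKM + 0.1), while the 9 genes gave 1 higher and 8 lower in all 3. With upper-quartile scaling, where all genes gave 4563 higher and 3735 lower, Camk2d was not called. The median log2 change was -0.52 over the 9 genes and 0.02 over all genes tested. Not overlapping between all 6 Dnmt3l and all 6 control libraries were Camk2a, above, and Camk2b, Camk4 and Ppp3ca, below. Over all genes 5.47% lay wholly above and 6.83% wholly below.

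**Figure D1:**
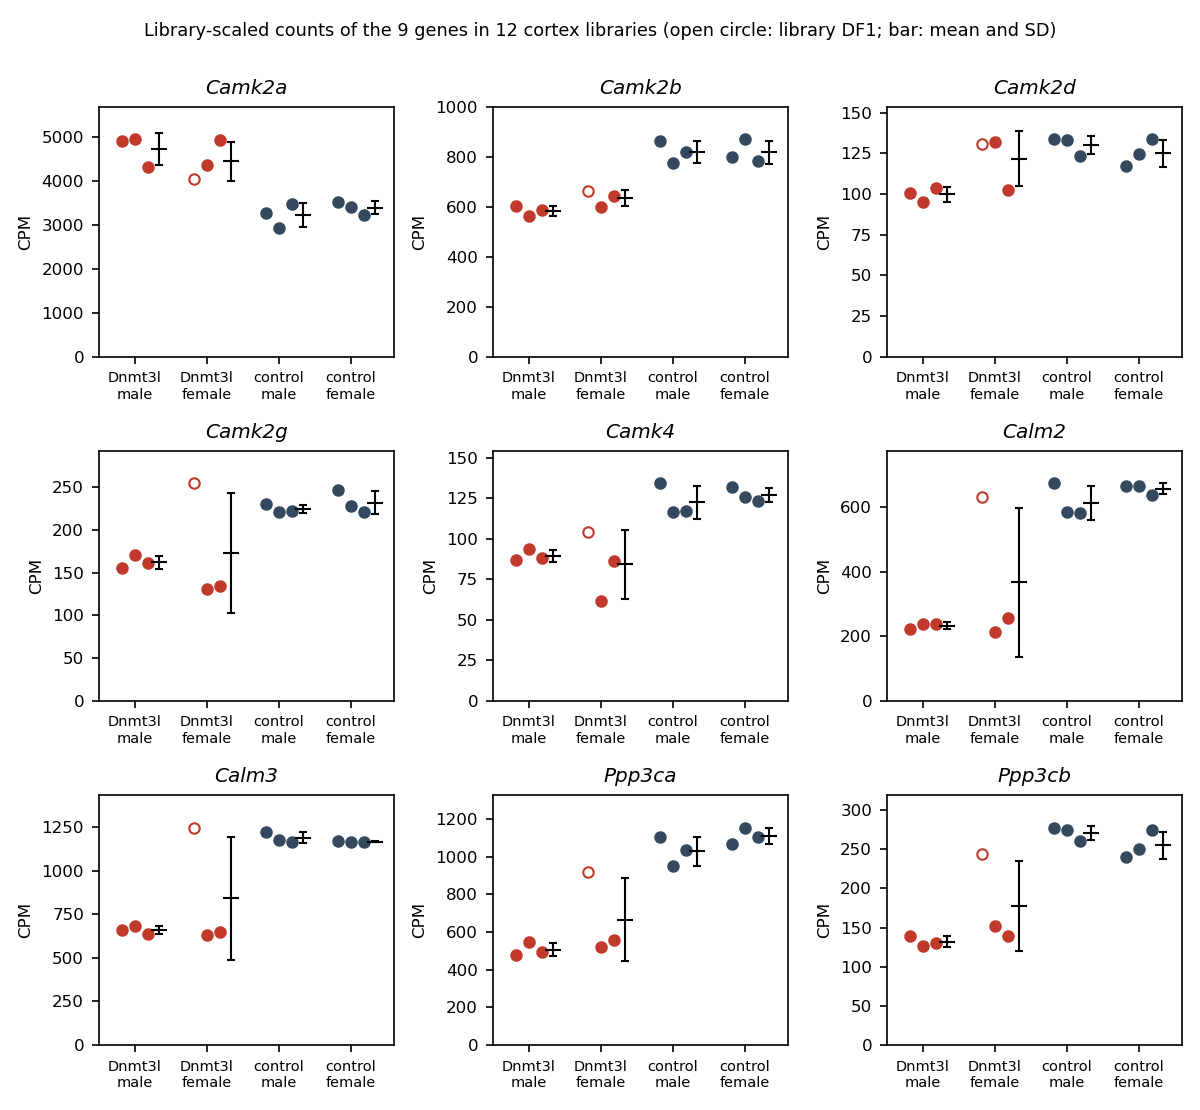
Level of each gene as library-scaled counts (CPM, linear axis from 0) in the 12 libraries, by genotype and sex, with the mean and SD of each group of 3 beside its points and DF1 as an open circle. Camk2a lies higher in all 6 Dnmt3l libraries, and DF1 lies at the level of the controls for Camk2g, Calm2, Calm3 and Ppp3cb.

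Camk2a, whose alpha subunit is the most abundant CaMKII subunit of forebrain excitatory neurons, lies on chromosome 18 (60925618 to 60988152, plus strand, GRCm38). It measured 4914, 4949 and 4316 CPM in male Dnmt3l libraries, 4043, 4371 and 4926 CPM in female Dnmt3l libraries, 3267, 2925 and 3467 CPM in control males and 3526, 3411 and 3235 CPM in control females. The lowest Dnmt3l library, DF1, was still above the highest control. The log2 change was 0.47 ± 0.07 (SE; edgeR adjusted p = 0.000308), a 1.39-fold difference, and it was 0.49 without DF1.

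Camk2b encodes the actin-binding beta subunit (chromosome 11, 5969644 to 6066362, minus strand) and moved the other way. Levels were 604, 564 and 586 CPM in male Dnmt3l libraries, 662, 599 and 646 CPM in female Dnmt3l libraries, 862, 775 and 818 CPM in control males and 801, 870.4 and 785 CPM in control females. All 6 Dnmt3l libraries were below all 6 controls, with DF1 the nearest to them. The gene fell by 0.43 on the log2 scale (SE 0.06; edgeR adjusted p = 0.000264).

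Camk2d, the delta subunit gene, best known from heart muscle, spans chromosome 3 from 126596302 to 126846326 on the plus strand. The Dnmt3l males had 101, 94.8 and 104 CPM and the Dnmt3l females 131, 132 and 102 CPM, against 134, 133 and 124 CPM in control males and 117, 125 and 134 CPM in control females. Dnmt3l males lay below every control, but DF1 and DF2 were within the control range. The change of -0.21 ± 0.07 (edgeR adjusted p = 0.0274) was the smallest of the 9, and the call was lost when DM1, DM2, DF3, CM1 or CF3 was left out (adjusted p up to 0.0677). Upper-quartile scaling also lost it.

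Camk2g encodes the gamma subunit, known as a carrier of calmodulin to the nucleus (chromosome 14, 20734875 to 20794088, minus strand). It lies near Ppp3cb on the same chromosome, which spans 20499364 to 20546573, also on the minus strand. Camk2g stood at 155, 170.4 and 161 CPM in male Dnmt3l libraries, 254, 131 and 134 CPM in female Dnmt3l libraries, 229.8, 221 and 222 CPM in control males and 246, 228 and 220.4 CPM in control females. Only DF1 reached the controls, and it exceeded all of them. Camk2g fell by 0.44 (SE 0.14; edgeR adjusted p = 0.0155), and without DF1 by 0.65 (adjusted p = 2.07e-08).

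Camk2a made up more of the CaMKII family in Dnmt3l. As a share of the summed FPKM of the 4 subunit genes, Camk2a made up 76.6 ± 4.11% in Dnmt3l libraries (68.8% to 79.5%) and 63.5 ± 1.91% in controls (60.3% to 65.8%; SD, n = 6 each). Camk2b made up 11.7 ± 1.01% in Dnmt3l and 18.1 ± 1.14% in controls, again without overlap, and Camk2g made up 8.58 ± 3.12% in Dnmt3l and 14.4 ± 1.38% in controls, overlapping through DF1 (14.5%). Camk2d was the smallest share in both, at 3.10 ± 0.731% in Dnmt3l and 3.95 ± 0.436% in controls, with overlapping ranges. The ratio of Camk2a to Camk2b was 5.25 to 7.83 in the 6 Dnmt3l libraries and 3.06 to 3.90 in the 6 controls, with DF1 the lowest of the Dnmt3l libraries. Family totals were 1330 to 1510 FPKM in Dnmt3l and 1200 to 1390 FPKM in controls. These shares follow from the gene levels above and were not tested separately.

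**Figure D2:**
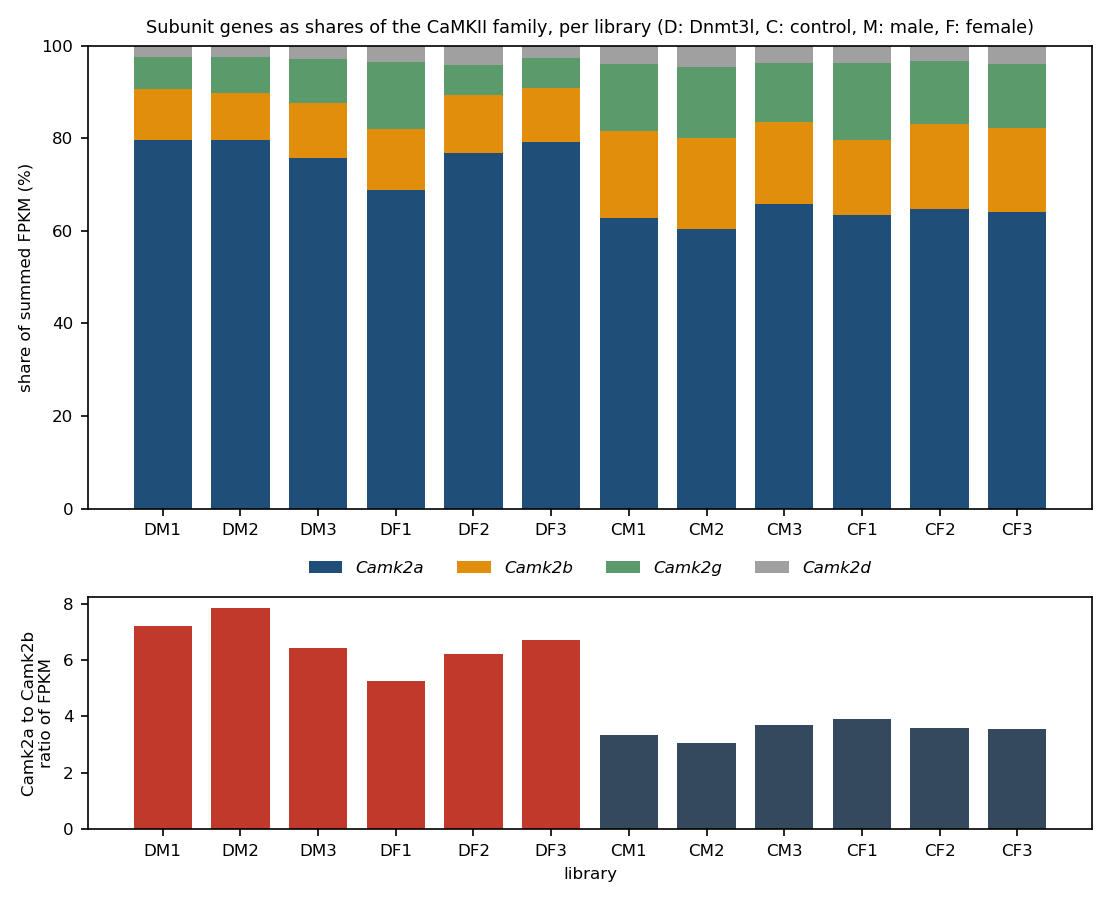
Upper panel, share of each subunit gene in the summed FPKM of the CaMKII family in each library (percent, stacked bars), and lower panel, the Camk2a to Camk2b ratio of FPKM in the same libraries. The Dnmt3l libraries range from 5.25 to 7.83 in that ratio and the controls from 3.06 to 3.90.

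Camk4 (chromosome 18, 32934931 to 33191228, plus strand) measured 86.6, 93.8 and 88.2 CPM in male Dnmt3l libraries, 104, 61.9 and 86.4 CPM in female Dnmt3l libraries, 134, 116 and 117 CPM in control males and 132, 126 and 124 CPM in control females. Every Dnmt3l library was below every control, and DF2 was the lowest of all. The nuclear kinase gene fell by 0.52 on the log2 scale (SE 0.10; edgeR adjusted p = 0.00125).

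Both calmodulin genes fell. Calm2 (chromosome 17, 87433412 to 87446935, minus strand) had 222, 239 and 239 CPM in Dnmt3l males and 212 and 257 CPM in DF2 and DF3, but 632 CPM in DF1. Its controls held 673, 584 and 581 CPM in males and 666, 666 and 637 CPM in females. Calm2 thus had the largest change of the 9 genes, -1.12 ± 0.20 (edgeR adjusted p = 0.000903), and -1.46 (adjusted p = 3.07e-10) with DF1 left out, when the 5 remaining Dnmt3l libraries all lay below the controls.

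Calm3, a second source of the same protein, is on chromosome 7 (16915379 to 16924114, minus strand), and its promoter is one of those printed above. It had 657, 684 and 638 CPM in male Dnmt3l libraries, 1248, 629 and 648 CPM in female Dnmt3l libraries, 1223, 1176 and 1163 CPM in control males and 1169.7, 1167 and 1165 CPM in control females. DF1 was above all controls, and the other 5 Dnmt3l libraries were tightly grouped far below them. The change was -0.66 ± 0.14 (edgeR adjusted p = 0.00182), and -0.88 without DF1. No source used here states how reads that match more than one calmodulin gene or copy were divided.

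The catalytic calcineurin genes fell together with them. Ppp3ca, the predominant catalytic gene in brain (chromosome 3, 136670124 to 136937727, plus strand), had 479, 545 and 494 CPM in male Dnmt3l libraries, 918, 521 and 559 CPM in female Dnmt3l libraries, 1103, 949.6 and 1034 CPM in control males and 1068, 1155 and 1107 CPM in control females. DF1 was the nearest to the controls but remained below the lowest of them. The log2 change was -0.88 ± 0.12 (edgeR adjusted p = 0.000273).

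Ppp3cb, the other catalytic subunit expressed in brain, had 139, 127 and 130.4 CPM in male Dnmt3l libraries, 244, 151 and 139 CPM in female Dnmt3l libraries, 278, 274 and 260.2 CPM in control males and 240.0, 251 and 274 CPM in control females. DF1 overlapped the controls and the other Dnmt3l libraries did not. It fell by 0.78 (SE 0.12; edgeR adjusted p = 0.000369). The regulatory subunit gene Ppp3r1, which encodes calcineurin B, fell by 1.16 (SE 0.19, edgeR adjusted p = 0.000528) to 212 ± 106 CPM in Dnmt3l, against 464 ± 21.6 CPM in controls (SD, n = 6 each). For Ppp3r1 too DF1 was near the controls, at 428 CPM. Ppp3cc, the catalytic gene best known from testis, fell by 0.45 (SE 0.13) at a low level, 17.9 CPM in Dnmt3l and 24.5 CPM in controls.

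Leaving out DF1 left the same counts, 1 gene higher and 8 lower (all genes 4745 and 5178 of 15723), and all 9 changes were farther from 0 than with it. Without DF1, 7 of the 9 genes lay wholly below the controls (over all genes 23.7%) and Camk2a wholly above (over all genes 19.4%), which leaves Camk2d as the gene that overlapped. With CM3, CF1 and CF2, the liver-containing controls, left out, 1 gene rose and 6 fell (all genes 1950 and 2457 of 15501). Camk2d (-0.30, edgeR adjusted p = 0.0626) and Camk2g (-0.43, adjusted p = 0.118) were then no longer called. With DF1 and those 3 libraries left out together, the counts were again 1 higher and 8 lower (all genes 3975 and 4514 of 15423).

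**Figure D3:**
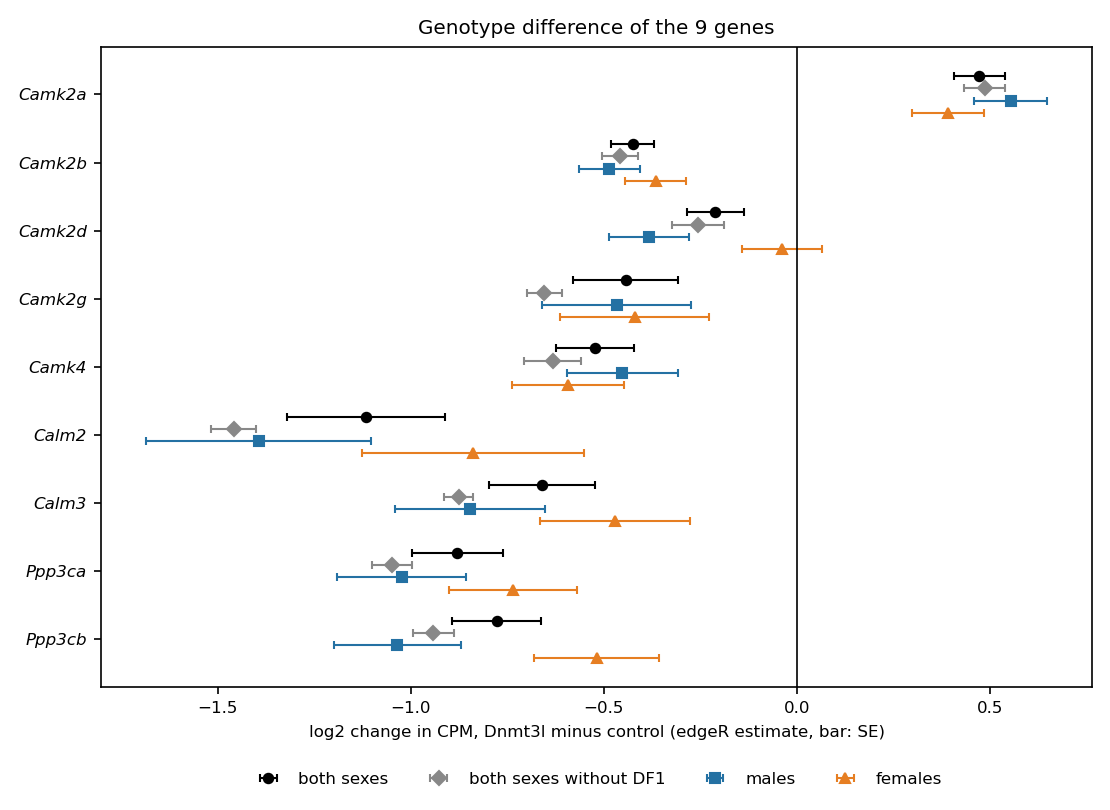
Log2 change of each gene, Dnmt3l minus control, in both sexes, in both sexes without DF1, in males and in females (points, with SE as bars, edgeR). Camk2a is to the right of 0 in all 4 estimates and the other genes to the left, with the female estimate of Camk2d at -0.04.

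The same question was asked in each sex. In males 1 gene rose (Camk2a, 0.55 ± 0.09) and 7 fell, while 20.4% of all genes were called higher and 22.7% lower (43.1% in either direction). The male changes of those that fell ran from -0.38 for Camk2d to -1.39 for Calm2, and Camk2g, at -0.47 ± 0.19, was not called (edgeR adjusted p = 0.0651). The male call of Camk4 was lost when DM1, DM3 or CM1 was left out, and Camk2g was called in males when DF1, DF2 or DF3 was. Without the 3 liver-containing controls 1 gene rose and 6 fell in males (all genes 1570 and 2147 of 15501), Camk4 being at -0.51 (edgeR adjusted p = 0.0676). In females 1 gene rose (Camk2a, 0.39 ± 0.09) and 3 fell, Camk2b by 0.37, Camk4 by 0.59 and Ppp3ca by 0.74, where 4.73% of all genes were called higher and 4.38% lower (9.1% in either direction). Camk2d at -0.04 ± 0.10 and Camk2g, Calm2, Calm3 and Ppp3cb, at -0.42 to -0.84, were not called in females (edgeR adjusted p 0.0577 to 0.811).

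The female counts varied with single libraries, as did those over all genes. Without DF1, 7 genes fell in females and Camk2d did not (-0.10, edgeR adjusted p = 0.423), while over all 15723 genes 3451 were called higher and 3995 lower. Without DM3 the counts were 1 higher and 2 lower, and leaving out any one of the other 10 libraries gave 0 higher and 0 lower in edgeR, where all genes gave 2 to 72 higher and 5 to 72 lower. With any 1 library left out the female change stayed between 0.31 and 0.44 for Camk2a and between -0.41 and -0.32 for Camk2b. A test of the male effect minus the female effect called 0 of the 9 genes in edgeR (0.0% of all genes), in DESeq2 and in limma. Camk2d (-0.34 ± 0.15) and Ppp3cb (-0.52 ± 0.23), both with an edgeR adjusted p = 0.679, were below 0.05 before adjustment, as were 7.09% of all genes. Between control females and control males 0 of the 9 were called in edgeR, DESeq2 or limma, and 0.0253% of all genes in edgeR. At an unadjusted p below 0.05 that count was also 0, the lowest p being 0.441 (Camk2a).

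Separate transcripts of each gene were also tested, with a scaling of their own. Of the 97 transcripts of the 9 genes 71 were tested, 4 rose and 16 fell in edgeR, while 4.78% of 54587 transcripts were called higher and 9.19% lower. The most abundant transcript of each gene followed the gene, 1 rising and 8 falling with a median log2 change of -0.78. The other 62 had a median of 0.06, close to the 0.07 of all transcripts, with 3 rising and 8 falling. With the 3 liver-containing controls left out 0 transcripts of these genes were called in edgeR, and 7 higher and 0 lower of all 52001 transcripts. The count of 4 that rose was 1 to 6 with a single library left out.

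**Figure D4:**
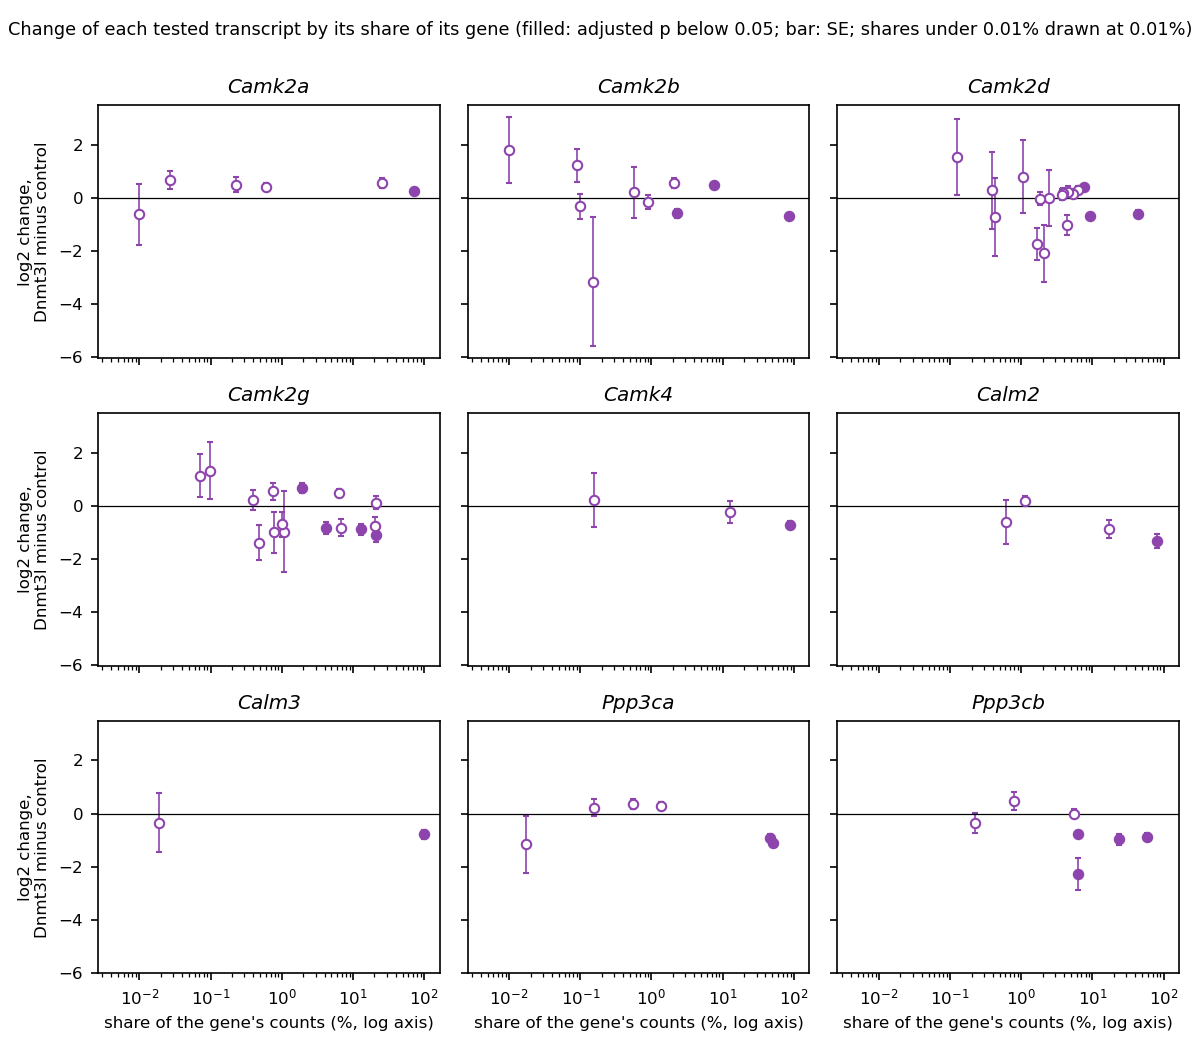
Log2 change of each tested transcript, Dnmt3l minus control (vertical axis, SE as bars), against its share of its gene's expected counts (percent, log axis), filled where the edgeR adjusted p was below 0.05. The most abundant transcript is called in each of the 9 genes, higher for Camk2a and lower for the other 8.

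Transcript levels are CPM with that separate scaling, and their log2 changes are therefore offset from those of genes. For example, ENSMUST00000019514 held nearly all Calm3 counts, yet its change was -0.78, against -0.66 for the gene. Camk2a was made of ENSMUST00000102888 (73.2% of its counts), which rose by 0.26 ± 0.05 to 3118 ± 116 CPM in Dnmt3l, against 2601 ± 106 CPM in controls (SD, n = 6 each; edgeR adjusted p = 0.011), and ENSMUST00000025519 (26.0%), which was not called (0.56 ± 0.18, adjusted p = 0.0663). In Camk2b the main transcript, ENSMUST00000109813, fell by 0.68 (SE 0.08; edgeR adjusted p = 0.00468), while the minor ENSMUST00000129098 rose by 0.48 (SE 0.13; adjusted p = 0.0333). As a share of Camk2b counts the main form held 82.2 ± 3.78% in Dnmt3l and 89.9 ± 0.820% in controls, and the minor one 10.3 ± 2.35% in Dnmt3l and 4.96 ± 0.352% in controls (SD, n = 6 each). The share of the minor form did not overlap between genotypes, but DF1 (5.81%) was close to the highest control, CF1 (5.64%). Its p of 0.00216 in a two-sided exact permutation test is the lowest one reachable with 6 libraries on each side. That p is not adjusted for the 27 transcripts tested in this way, and the background over all transcripts was not computed.

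Camk2d, with 28 transcripts in the table, had the longest list. Its leading transcripts ENSMUST00000106402 (43.6% of counts) and ENSMUST00000200171 (9.22%) fell by 0.62 and 0.67 (SE 0.15 and 0.12; edgeR adjusted p = 0.0218 and 0.00755), and ENSMUST00000149311 (7.69%) rose by 0.42 (SE 0.11; adjusted p = 0.036). The delta subunit transcripts ENSMUST00000129293 and ENSMUST00000198637 were not called, at 0.30 ± 0.17 and 0.16 ± 0.16. In Camk2g, ENSMUST00000080440 (21.3%) fell by 1.10 and ENSMUST00000226630 (13.1%) by 0.88 (edgeR adjusted p = 0.0208 and 0.0178). ENSMUST00000100837 (20.9%), at 0.12 ± 0.23, ENSMUST00000071816 (20.6%), at -0.76 ± 0.34, ENSMUST00000225800 (6.88%), at -0.82 ± 0.31, and ENSMUST00000225958 (6.42%), at 0.48 ± 0.16, were not called. The minor ENSMUST00000225660 (1.96%), named after its value was seen, rose by 0.66 (SE 0.20; edgeR adjusted p = 0.0496). Forms that rose and forms that fell thus stood side by side within Camk2b, Camk2d and Camk2g, but the rises were near the threshold. That of ENSMUST00000129098 was called only without DM3 or DF1, and that of ENSMUST00000149311 only without DF1 or CF3, among the fits that left 1 library out. Some falls also lost their call in those fits, that of ENSMUST00000106402 without DM1 or CF3 and that of ENSMUST00000080440 without DM2 or DF3.

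In Camk4, ENSMUST00000042868 (87.3%) fell by 0.71 (edgeR adjusted p = 0.00852), and ENSMUST00000234654 (12.6%) was not called at -0.23 ± 0.41. Calm2 fell through ENSMUST00000040440 (81.1%), by 1.33 (edgeR adjusted p = 0.00965), with ENSMUST00000150137 (17.2%) at -0.87 ± 0.35 and not called. Nearly all Calm3 counts belonged to ENSMUST00000019514, which fell by 0.78 (edgeR adjusted p = 0.0141). Both main Ppp3ca transcripts fell, ENSMUST00000070198 (51.0%) by 1.12 and ENSMUST00000056758 (46.9%) by 0.93 (edgeR adjusted p = 0.00483 and 0.00644). Of the Ppp3cb transcripts ENSMUST00000161445 (57.5%), ENSMUST00000159027 (23.4%), ENSMUST00000161989 (6.28%) and ENSMUST00000022355 (6.23%) fell, by 0.89, 0.97, 0.76 and 2.28, whereas ENSMUST00000223854 (5.56%), at 10.3 CPM in both genotypes, was not called (edgeR adjusted p = 0.996). The fall of ENSMUST00000022355 (SE 0.60, edgeR adjusted p = 0.03) lost its call when DM2, DF2, DF3, CM1, CM2, CF1 or CF3 was left out.

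Transcript usage was tested with limma on the log2 ratio of a transcript to the other transcripts of its gene. By that test 9 of the 71 transcripts took a larger share of their gene in Dnmt3l and 2 a smaller one, with 3.48% and 2.19% of 50109 transcripts called higher and lower (5.67% in all). Camk2b contributed the main ENSMUST00000109813 (-0.92 ± 0.18, limma adjusted p = 0.0258) and the minor ENSMUST00000129098 (1.11 ± 0.17, adjusted p = 0.0182). The Camk2d transcript ENSMUST00000149311 gained share (0.84 ± 0.12, limma adjusted p = 0.0169), with 9.72 ± 1.41% in Dnmt3l and 5.66 ± 0.331% in controls (SD, n = 6 each). ENSMUST00000129293 of Camk2d (0.68 ± 0.17) and ENSMUST00000225958 of Camk2g (1.17 ± 0.24) also gained share, and ENSMUST00000070198 of Ppp3ca lost it (-0.23 ± 0.06, limma adjusted p = 0.0452). The remaining calls were transcripts with under 5% of their gene. These counts varied widely between settings: with a single library left out 1 to 15 transcripts gained and 0 to 4 lost share, and without the 3 liver-containing controls 0 did either in limma. Over all transcripts 124 gained and 134 lost share without DM1, 3648 gained and 2241 lost it without DF1, and 123 gained and 30 lost it of 47567 without the 3 controls, so the counts for these genes moved with those for all.

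Other RNAs of the same loci gave few values. An assembled long non-coding transcript of 12254 bases at the Ppp3ca locus stood at 1255 ± 139 CPM of the long non-coding table in Dnmt3l and 1464 ± 91.1 CPM in controls (SD, n = 6 each; log2 change -0.23 ± 0.07, edgeR unadjusted p = 0.00803, adjusted p = 0.238), where 0.494% of 12752 transcripts were called. Its range in Dnmt3l (1002 to 1377) overlapped that in controls (1367 to 1605) by 1 library of each. The circular RNA table listed 18 circles hosted by the 9 genes, 7 from Ppp3ca, 6 from Camk4, 2 from Camk2g, 1 each from Camk2b, Camk2d and Ppp3cb, and 0 from Camk2a, Calm2 and Calm3. Only 3 were above 0 in enough libraries to be tested. The Camk4 circle between 33077993 and 33129833 on chromosome 18 scored 18, 68 and 68 in Dnmt3l males, 54, 35 and 116 in Dnmt3l females, 88, 160 and 120 in control males and 120, 44 and 121 in control females. Those ranges overlapped, and its change of -0.90 ± 0.45 on log2(score + 5) was not called (limma unadjusted p = 0.0505, the lowest of the 3; adjusted p = 0.526). The Ppp3ca circles from 136797726 to 136797926 and to 136881540 were not called either (limma adjusted p = 0.758 and 0.815), against 0.251% of 1989 circles called and 9.4% at an unadjusted p below 0.05.

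The wider pathway was read from a list of 125 genes, of which 122 were tested. Of these, 32 rose, 57 fell and 33 were not called, with a median log2 change of -0.23. Over all genes 25.2% were called higher and 26.4% lower in that fit, the background also for the counts of each list below. Without DF1, 36 rose and 66 fell, and without the 3 liver-containing controls 10 rose and 39 fell, in the fits that called 4745 higher and 5178 lower, and 1950 higher and 2457 lower, over all genes. Without those controls 5 calmodulin-regulated enzymes rose and 6 fell, and 3 CaMKII partners rose and 2 fell. Among the other lists there were then 1 higher and 5 lower calcineurin substrates, 0 and 3 calmodulin-sequestering proteins, 0 and 5 other CaM kinases, and 0 and 1 CREB-family genes. The calmodulin and calcineurin genes beyond the 9 went mostly down: of 6 tested 4 fell, among them Ppp3r1, Chp1 (a calcineurin B homologue, -0.60) and Ppp3cc, while Ppp3r2, the testis-type regulatory subunit, rose by 0.70 at 2.38 CPM in Dnmt3l and 1.46 CPM in controls (edgeR adjusted p = 0.0401), and Calml4 was not called.

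**Figure D5:**
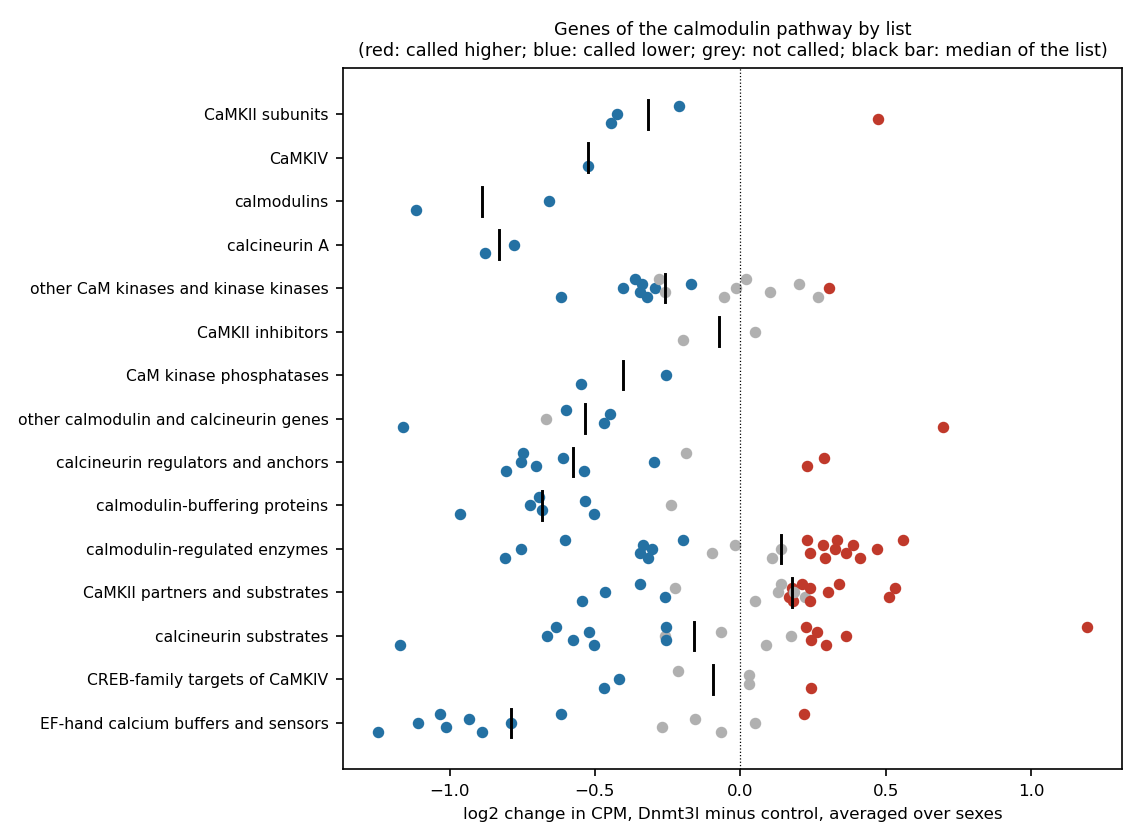
Log2 change of every tested gene of each list, Dnmt3l minus control, averaged over sexes (horizontal axis), coloured by whether it was called higher, called lower or not called in edgeR, with the median of each list as a bar. Genes on the calmodulin-buffering list lie to the left, while the enzymes that calmodulin regulates and the partners of CaMKII lie on both sides of 0.

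Among 17 other calmodulin kinases and related kinases 8 fell, 1 rose and 8 were not called (median -0.26). The CaMKI genes Camk1d (-0.62 ± 0.08, edgeR adjusted p = 0.000268) and Camk1 (-0.36 ± 0.10, adjusted p = 0.00967) fell, and so did Camkk1 (-0.40 ± 0.12), which encodes an upstream kinase that activates CaMKI and CaMKIV. Phkg1, the muscle-type phosphorylase kinase subunit, chosen for naming after its value was seen, was the gene that rose (0.30). Neither CaMKII inhibitor gene was called, Camk2n1 standing at 814 CPM in Dnmt3l and 786 CPM in controls. Without DF1, which held 1108 CPM, the Dnmt3l mean of Camk2n1 was 755 CPM (-0.12, edgeR adjusted p = 0.121), and Camk2n2 was called lower (-0.30, adjusted p = 0.0183). The phosphatase genes Ppm1e (-0.55) and Ppm1f (-0.25), whose products dephosphorylate CaM kinases, both fell.

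Of the list of calcineurin regulators and anchors, 7 of 10 tested genes fell and 2 rose (median -0.57). The immunophilin genes Fkbp1a (-0.75 ± 0.12, edgeR adjusted p = 0.000547) and Ppia (-0.75 ± 0.15, adjusted p = 0.00137), targets of the drugs FK506 and cyclosporin, fell. Cacybp, which is on the list although its product is known as a partner of S100 and Siah proteins, fell by 0.81 (SE 0.14). Cabin1 (0.29), a calcineurin inhibitor, and Akap1 (0.23), a mitochondrial anchor, were the genes that rose and were named after their values were seen. Of 7 genes on the list of calmodulin-buffering proteins, 6 fell and 0 rose (median -0.68). Among them were Pcp4l1 (-0.96 ± 0.18), Basp1 (-0.72 ± 0.17) and Gap43, the growth cone protein (-0.69 ± 0.11), with edgeR adjusted p 0.000438 to 0.00398 for the 3. In the same direction, 8 of 13 EF-hand buffers and sensors fell and 1 rose (median -0.79), with Calb2 at -1.24, Hpca (hippocalcin) at -1.11 and Vsnl1 at -1.03 (edgeR adjusted p 0.000115 to 0.00204). DF1 was at 435 CPM for Vsnl1, above the control mean of 406 CPM. It was below the control mean for Hpca (321 against 429 CPM) and Calb2 (7.26 against 14.6 CPM).

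Downstream genes were more mixed. Of 23 calmodulin-regulated enzymes and channels 11 rose and 8 fell (median 0.14), the largest changes being falls of the cyclic nucleotide phosphodiesterases Pde1a (-0.81) and Pde1b (-0.75) and of the inositol trisphosphate kinase Itpka (-0.60; edgeR adjusted p 0.000954 to 0.0014). CaMKII partners and substrates included 10 of 20 that rose and 4 that fell (median 0.18): the NMDA receptor subunit gene Grin1 rose by 0.53 (SE 0.08; edgeR adjusted p = 0.000318) and the postsynaptic scaffold gene Shank3 by 0.51 (SE 0.08), and the calcium channel subunit gene Cacnb1 fell by 0.54. Calcineurin substrates split 6 up and 8 down among 18 (median -0.16). In that list Nfatc4 rose by 1.19, at 3.67 CPM in Dnmt3l and 1.61 CPM in controls, Mef2c fell by 0.66, and Ppp1r1b, which encodes DARPP-32 and is also a striatal marker, fell by 1.17. Of 6 genes of the CREB family and its cofactors Creb1 (-0.47) and Crem (-0.42) fell, Crtc1 (0.24) rose and 3 were not called.

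Markers of other cell types moved between the genotypes too. Markers of astrocytes (10 of 11 rose, 1 fell), microglia (10 of 11 rose) and endothelial cells and pericytes (11 of 11 rose) were higher in Dnmt3l. Of oligodendrocyte precursor markers 5 of 8 rose, and of oligodendrocyte markers 6 of 10 rose and 2 fell. Without the 3 liver-containing controls 8 of 11 astrocyte, 9 of 11 microglial, 10 of 11 vascular and 2 of 10 oligodendrocyte markers rose. Without DF1 4 of 17 excitatory markers rose and 9 fell (median -0.38), 7 of 15 interneuron markers rose and 8 fell, and 4 of 6 meningeal markers rose. Summed microglial markers were 523 to 648 CPM in Dnmt3l libraries other than DF1 and 323 CPM in DF1, against 297 to 338 CPM in controls, and summed astrocyte markers were 11400 to 13900 CPM in those libraries and 7560 CPM in DF1, against 6780 to 7360 CPM in controls. With all libraries, excitatory neuron markers split 4 up and 6 down of 17 (median -0.23, summed 3050 to 3760 CPM in Dnmt3l, 2860 to 3410 CPM in controls), and interneuron markers 4 up and 8 down of 15. All 17 excitatory markers were detected in both genotypes, and of all marker lists only the liver list held markers at 0 in every Dnmt3l library (2 of 12). Of 6 meningeal markers 1 rose, and 1 each of 6 choroid plexus and 8 striatal markers, 10 of 11 tested liver markers and 4 of 5 red blood cell markers fell. The median log2 change was -6.81 for liver and -0.99 for red blood cell markers. Without the 3 liver-containing controls it was 0.76 over the 2 liver markers still tested and -0.30 over the 5 red blood cell markers. Fewer cells of a type and less RNA per cell cannot be told apart in bulk tissue, and the part of these shifts in the changes of the 9 genes was not tested.

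Mitochondrial transcripts took 5.57% to 7.30% of counts in Dnmt3l libraries other than DF1 and 3.73% in DF1, against 2.63% to 3.59% in controls. Genes with short transcripts had slightly lower changes than those with long ones, with a median of -0.05 over genes up to 1500 bases and 0.13 over genes above 5000 bases. The mean transcript length weighted by FPKM was 1032 bases for Calm2, 1522 for Camk2g, 2287 for Calm3 and 2537 for Camk4. It was 2739 bases for Camk2d, 2965 for Ppp3ca, 3099 for Ppp3cb, 3788 for Camk2b and 4293 for Camk2a. Genes of 3000 to 5000 bases had a median change of 0.06, and of the genes in that range Camk2a rose while Camk2b and Ppp3cb fell. The part of either measure in the changes was not tested.

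The genes whose log2 CPM was most like that of Camk2a over the 12 libraries, among 9894 genes with a mean of at least 10 CPM, included Shank2 (Pearson r = 0.985) and Pom121 (r = 0.982). Those most like Camk2b were Crmp1 (r = 0.99), Sertad4 (r = 0.978) and Wdr1 (r = 0.976). The points share their genotype groups, so these coefficients follow the difference between genotypes. Shank2, for example, stood at 562 ± 63.1 CPM in Dnmt3l and 362 ± 21.3 CPM in controls, and Crmp1 at 135 ± 10.6 CPM in Dnmt3l and 182 ± 8.13 CPM in controls (SD, n = 6 each).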

How the data were processed

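RNA of 12 libraries was analysed, 3 for each sex and genotype. The authors deposited expected counts (estimated reads) and FPKM per transcript for mRNA and long non-coding RNA, and a score for each circular RNA, of unstated making. The submitters' processing notes name the GRCm38 build and, with no role, HISAT2 (version 2.0.1), HTSeq (version 0.6.1), bedtools (version 2.17.0), cutadapt (version 1.9.1) and DESeq2.

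Expected counts were summed per gene ID and rounded to whole numbers. Transcripts without a gene ID (1774 of 119414, 0.533% to 0.601% of counts per library) were left out. Genes with at least 0.5 FPKM in at least 3 libraries were tested (15786) with edgeR 4.0.16 (quasi-likelihood test, TMM scaling, 4 group means, 8 residual degrees of freedom). Transcripts were fitted likewise, and long non-coding RNAs with a filter of 0.1 FPKM. Circular RNAs above 0 in at least 6 libraries were tested with limma 3.58.1 on log2(score + 5). Transcript usage was tested with limma on the log2 ratio of a transcript to the other transcripts of its gene, chosen after seeing the data in place of edgeR's diffSpliceDGE, for which 214 of 237 calls were false on simulated data (1 of 16 for the log ratio). Calls needed a Benjamini-Hochberg adjusted p below 0.05. R 4.3.3 and Python 3.11.15 were used, with DESeq2 1.42.0 among the alternatives.

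On simulated data the gene test on 15786 genes recovered 52.2%, 83.6% and 95.5% of changes of 1.5, 2 and 4-fold, with 12 of 166 calls false. The transcript test on 54587 transcripts recovered 1.49%, 14.9% and 37.9% of changes of 1.5, 2 and 4-fold, and the log ratio 0%, 0% and 16.7%. In that simulation fewer true changes were thus recovered for transcripts than for genes, and a transcript that was not called may still have changed. Far fewer genes and transcripts were changed in the simulation than were called in the data (8136 genes and 7623 transcripts). Recovery and false calls at an adjusted p depend on that share, so the simulated rates may not hold for these data.

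The 9 genes, the pathway lists and the marker lists were chosen with earlier results of these data known. All 9 genes were named, as were their transcripts with at least 5% of the gene's counts, the 3 called genes with the largest changes in each pathway list, and the 3 genes most correlated with Camk2a and with Camk2b. Alternatives were other scalings, tests and filters, a replicate block and leaving libraries out. Of the genes these rules name, 1 is not reported here. The microRNA table was not used here.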

Additional observations from a re-analysis of the deposited data

Results flagged for a closer look

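The 9 genes were checked in each genotype for a library far from the other 5, which gave 18 checks and 7 libraries that stood apart by Dixon's criterion, one that chance meets in about 1 of 20 groups. In the Dnmt3l genotype the library was DF1 in all 5 cases: Camk2g at 254 CPM, Calm2 at 632 CPM, Calm3 at 1248 CPM, Ppp3ca at 918 CPM and Ppp3cb at 244 CPM, each the highest of its 6. In controls, Camk2g was highest in CF1, at 246 CPM, and Calm3 in CM1, at 1223 CPM. DF1 also had the highest Dnmt3l RNA of its genotype, 45.8 CPM, and the lowest mitochondrial share of the 6, 3.73%. The cause was not tested.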

How the results depend on the processing

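Averaged over sexes, 1 gene was higher under every alternative run, and 7 to 8 were lower with 1 library left out. Camk2d was not called with upper-quartile scaling. Each averaged change kept its sign. With 1 library left out the female change of Camk2d ran from -0.10 to 0.07. The male effect minus the female effect then crossed 0 for Camk2g, Camk4, Calm2, Calm3 and Ppp3ca. In males 1 gene was higher and 6 to 8 lower with 1 library left out (all genes 2161 to 3789 higher and 2708 to 4634 lower). In females 0 were higher with limma on log2(FPKM + 0.1) or log2(FPKM + 1), where 94 or 93 of all genes were higher. With no filter on low values 5 were lower in females (all genes 1025 of 22533). With 1 library left out 0 to 1 were higher and 0 to 7 lower in females (all genes 2 to 3451 and 5 to 3995). Without DF1 and the 3 liver-containing controls the female changes ran from -1.46 for Calm2 to 0.50 for Camk2a, with Camk2d at -0.21. Without those 3 controls, which leaves 1 female control assumed to vary like the other groups, females had 0 higher and 0 lower (all genes 2 and 0), transcripts 0 and 0 (all transcripts 7 and 0), transcript usage 0 and 0 (all 123 and 30), and all genes averaged over sexes 1950 and 2457. Transcripts numbered 8 higher with a filter of 1 FPKM in 6 libraries (all transcripts 3963 of 36860). With 1 library left out 1 to 6 transcripts were higher and 12 to 21 lower (all transcripts 1500 to 4414 and 3420 to 7458). Usage gave 2 higher and 1 lower with diffSpliceDGE (all 346 and 326). With 1 library left out it gave 1 to 15 higher and 0 to 4 lower (all 124 to 3648 and 125 to 2241). All genes gave 2329 or 2345 higher with limma (pseudocount 0.1 or 1), and 3314 to 4745 higher and 3734 to 5178 lower with 1 library left out. The causes were not tested.

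With the replicate number as a block, 1 transcript was higher (all transcripts 1797 higher and 4186 lower), and usage gave 0 higher and 0 lower (all 37 and 36); all genes gave 3811 higher and 4082 lower. Same-numbered libraries did not deviate together (18 pairs, r from -0.33 to 0.0878, 0 over 0.1). Deviations from means of 3 libraries cannot show whether same-numbered libraries shared more than a number. An alternative with protein-coding transcripts only was not run.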
